A study of Mus musculus with 6 samples.

Results

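The genes described here are 33 genes of B cells and of their precursors, followed in RNA from cells that were selected from mouse bone marrow (BM) as neutrophils. The genes were listed by their known place in the B lineage, with earlier results of these data known. They form 4 groups, namely 10 genes of early precursors, 11 genes used across B stages, 7 genes of mature B cells and 5 genes of MHC class II antigen presentation. Of the 33 genes, 32 have a row among the 38887 Ensembl gene identifiers of the count table. The row of Ighd, the IgD heavy chain, could not be matched, and Ighd was not analysed here. A filter on low counts left 28 of the 32 genes for testing, and Rag2, Dntt, Vpreb2 and Ciita did not pass it.

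BM cells bearing Ly6G, a surface protein of neutrophils, had been isolated with magnetic beads from naive mice without tumor and from mice 1 week or 3 weeks after injection of LL2, a lung carcinoma cell line, here called one-week and three-week LL2 mice. LL2 cells were given into a vein and formed lesions in the lung, so that the model has a single injected line as its tumor. Each of the 3 groups had 2 libraries, which the labels number as replicate mice, and no genetic alteration is named for any group. The study's methods name purchased C57BL/6N mice of both sexes and C57BL/6 females of a single age range, and which of these gave each library is not stated. The libraries held 11994158 to 14127919 counts in total, and 3 counts, taken as the smallest detected level, equalled 0.212 to 0.25 CPM, the unit of counts after division by the library's total. Such floors, and the intervals given below, allow for counting error alone. The neutrophil transcript S100a8 had between 2104828 and 2948409 counts in each library, although Ly6g itself had only 6 to 32. CPM of genes and of gene groups were further scaled between libraries by TMM. Differences are log2 fold changes with their standard error (SE), tested by the quasi-likelihood test of edgeR, and a gene is called when its Benjamini-Hochberg adjusted p-value over all 12259 tested genes is under 0.05.

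B cells are made in BM. Precursors cut and join their immunoglobulin genes with the RAG proteins, and they carry a pre-B-cell receptor in which the surrogate light chain proteins VPREB1 and IGLL1 stand in for the light chain that has yet to be made. The receptor signals through CD79A and CD79B under the control of the transcription factors EBF1 and PAX5, which remain in use as cells mature. Mature B cells add surface proteins such as CD20 (Ms4a1), CD21 (Cr2) and CD23 (Fcer2a), and they present antigen on MHC class II.

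Of the 6 libraries, 2 stood apart in transcripts of other lymphoid cells. Naive replicate 2 had 1168 counts of Jchain, the chain that joins secreted antibodies, where the other libraries had between 114 and 456. One-week LL2 replicate 2 had 128 counts of Lck, a kinase of T cells, where the other libraries had between 13 and 36. It also had 93 counts of Il2rb, a receptor of NK cells and T cells, where the others had between 8 and 25. Results that rest on these libraries are given with and without them where the call or the size depends on it.

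B-lineage transcripts were few in the selected cells. Summed over the 32 genes, their level was 228 and 281 CPM in the naive libraries, 248 and 238 CPM in the one-week LL2 libraries, and 84.3 and 66.2 CPM in the three-week LL2 libraries. The three-week libraries were the lowest, and the naive and one-week libraries overlapped. Group means were 254.6 ± 37.1 CPM (SD, n = 2), 243.3 ± 6.92 CPM and 75.2 ± 12.8 CPM, so that the summed level was 3.38-fold lower in three-week LL2 mice than in naive mice. The difference of the mean log2 sums was -1.76, and without naive replicate 2 it was -1.61. With 2 libraries against 2, an exact two-sided permutation test cannot give a p below 0.333, so none is given for sums. In bulk RNA, fewer B-lineage cells and less of these transcripts per cell cannot be told apart.

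Levels of different genes can be compared only per length. In naive libraries, H2-Eb1, a chain of the MHC class II molecule, had the highest mean, with 12.9 and 17.0 CPM per kb of exon in the 2 libraries. Ighm, the IgM heavy chain, came second by its mean, but its libraries, at 3.65 and 22.7 CPM per kb, lay far apart. H2-Aa followed with 7.06 and 11.2 CPM per kb and H2-Ab1 with 6.25 and 9.30, and the libraries of these 2 genes overlapped. Pou2af1 came next with 7.29 and 7.73 CPM per kb, within the range of H2-Ab1. Vpreb3, at 7.92 and 4.66, overlapped with Pou2af1 and with Cd79b, at 6.68 and 5.66, whereas Cd79b lay under Pou2af1. The early genes Rag1, Myl4 and Igll1 were far lower, at no more than 0.621 CPM per kb in either naive library.

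**Figure D1:**
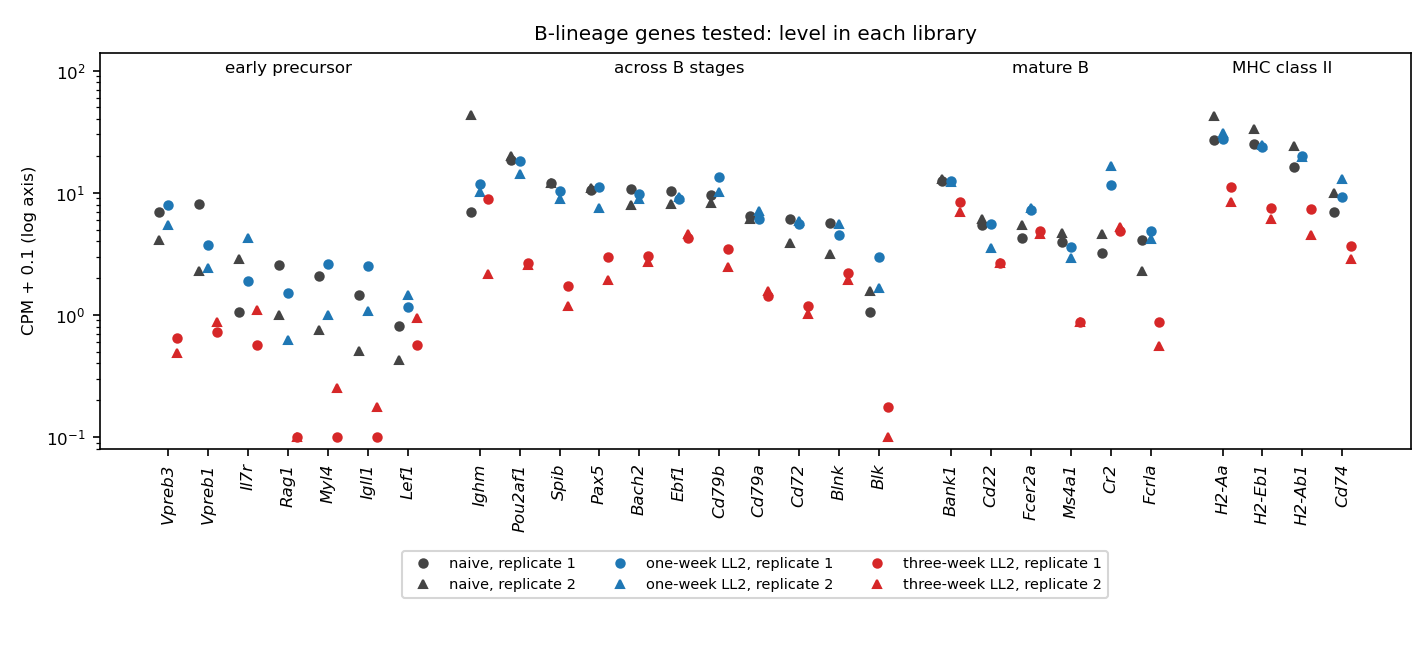
Level of the 28 tested B-lineage genes in each library, as CPM plus 0.1 on a log axis. Genes stand in 4 groups and within each by their naive level, each point is 1 library, colors mark the mouse groups and shapes the replicate number. For most genes both three-week points lie under all others, whereas Cr2 is highest in the one-week libraries and Ighm in 1 naive library.

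To ask whether early disease went with a change, one-week LL2 mice were compared with naive mice. None of the 28 tested B-lineage genes was called lower by edgeR, against a background of 3.76% of all tested genes called lower, and 1 gene, Cr2, was called higher, against 4.23%. DESeq2 also called 1 of the genes. The other 27 genes had log2 fold changes from -1.18 to 1.19 with adjusted p-values from 0.137 to 0.999. At an unadjusted p under 0.05, 2 genes passed. Both one-week libraries lay under both naive ones for 5 genes and above them for 6, against 26.1% and 27.1% of all tested genes. The median log2 fold change was 0.04 over the 28 genes and 0.01 over all tested genes.

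In neutrophils selected from three-week LL2 mice, 24 of the 28 tested B-lineage genes were called lower than in naive mice and 0 higher, where edgeR called 9.42% of all tested genes lower and 12% higher. A gene could pass the filter on its naive or one-week level alone, so this count is a description of these 28. Without the filter, 25 of 32 genes were called lower. Their log2 fold changes had a median of -2.13, a level 4.39-fold lower, where the median over all tested genes was 0.03. For 23 genes both three-week libraries lay under both naive libraries, and for 1 they lay above, against 27.5% and 32.1% of all tested genes. Without naive replicate 2 the count called lower was 21. Of the 24 genes, 10 were lower by more than 5-fold, where 0.848% of tested genes were. The genes not called were Il7r, Lef1, Cr2 and Fcer2a.

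Set against one-week LL2 mice, 24 of the 28 genes were again called lower in three-week LL2 mice and 0 higher, with 9.57% of all tested genes called lower. The median log2 fold change was -1.99. All 28 tested genes had both three-week libraries under both one-week libraries, where 32.3% of tested genes did. Without one-week LL2 replicate 2 the count called lower was 22. Of the 24 genes, 9 were called with a change over 5-fold, against 0.881%. Lef1, Ighm, Cd22 and Fcer2a were not called, with adjusted p-values of 0.341, 0.305, 0.0817 and 0.0681. Both counts share the three-week libraries and are not independent of one another.

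**Figure D2:**
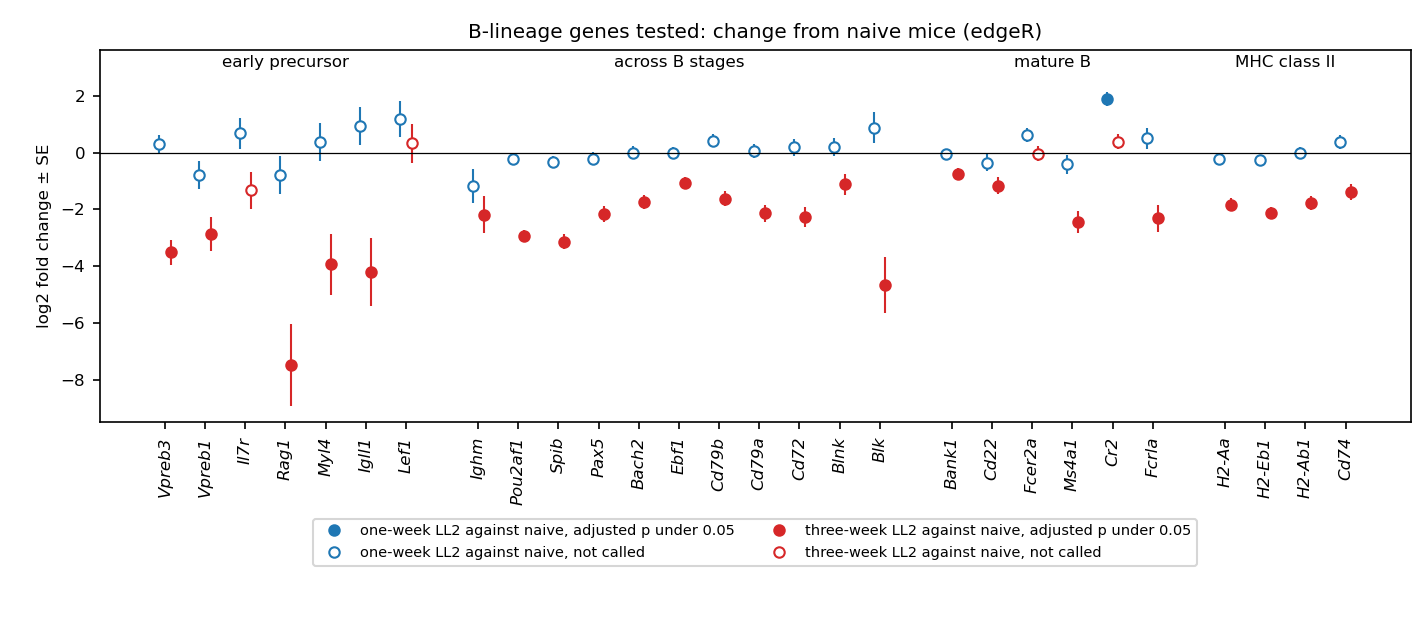
Log2 fold change from naive mice with its SE for the 28 tested B-lineage genes, fitted by edgeR. Blue points are one-week LL2 mice, red points three-week LL2 mice, and filled points have an adjusted p under 0.05. All blue points but that of Cr2 are open, and 24 red points are filled and lie under 0, from -7.48 for Rag1 to -0.74 for Bank1. The fitted value of Rag1 is no bound, since both of its three-week libraries were at 0.

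Among genes of early precursors, 5 of the 7 tested were lower in three-week LL2 mice than in naive mice, with a median log2 fold change of -3.52 over the 7. Rag1, which cuts DNA in the joining of immunoglobulin gene segments (ENSMUSG00000061311, chromosome 2, 101638282 to 101649501, minus strand, GRCm38), had 31 and 11 counts in naive mice, 21 and 7 in one-week LL2 mice, and 0 and 0 in three-week LL2 mice. The transcript was thus not detected in either three-week library. Set against 3 counts in each of these libraries, its level was at least 7.24-fold lower than in naive mice and at least 4.15-fold lower than in one-week LL2 mice, with adjusted p-values of 0.00308 and 0.00875. Without one-week LL2 replicate 1, which held 21 of its 28 one-week counts, the comparison with one-week LL2 mice was no longer called.

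Vpreb1 (ENSMUSG00000059305, chromosome 16, 16868403 to 16870843) and Igll1 (ENSMUSG00000075370, chromosome 16, 16860671 to 16863985) lie close together on the minus strand of GRCm38 and encode the surrogate light chain. Vpreb1 had 102 and 27 counts in naive mice, 54 and 31 in one-week LL2 mice, and 8 and 10 in three-week LL2 mice. The three-week libraries lay under the other 4, and the one-week libraries lay between the 2 naive ones. The log2 fold change against naive mice was -2.87 (SE 0.587, adjusted p = 0.00367), and without naive replicate 1 it was -1.69 and no longer called. Igll1 had 17 and 5 counts, 36 and 13, and then 0 and 1. With 22 counts in the naive libraries and 1 in the three-week ones, the ratio was 22.9 with a 95% counting interval from 3.70 to 946, and the adjusted p was 0.0236. The fitted log2 fold change was -4.21, and the call was lost in DESeq2, without naive replicate 1 (-3.15) and without three-week LL2 replicate 1 (-3.36). Of the sequence of Vpreb1, 23.6% of 50-base words also occur in other genes, most of them in Vpreb2, so that reads could be split between both.

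Vpreb3, which binds immunoglobulin chains in the precursor cell (ENSMUSG00000000903, chromosome 10, 75943057 to 75949657, plus strand), had 86 and 49 counts in naive mice, 117 and 72 in one-week LL2 mice, and 7 and 5 in three-week LL2 mice. It shared no 50-base word with another gene. Its log2 fold change against naive mice was -3.52 (SE 0.443, adjusted p = 0.000126), a level 11.5-fold lower. Myl4, a myosin light chain listed among early genes, had 25 and 8 counts, 38 and 12, and then 0 and 2. The 33 naive counts against 2 gave a ratio of 17.2 with an interval from 4.4 to 148 (adjusted p = 0.0184). Its fitted log2 fold change was -3.94, and without naive replicate 1 (-2.97) or three-week LL2 replicate 1 (-3.02) it was not called.

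Il7r and Lef1 stood apart from the other early genes. Il7r, the receptor for the growth factor IL-7 that T cells also carry, had 12 and 34 counts in naive mice, 27 and 56 in one-week LL2 mice, and 6 and 13 in three-week LL2 mice. Its libraries overlapped between naive and three-week LL2 mice, and its log2 fold change was -1.33 (SE 0.645, adjusted p = 0.166). Against one-week LL2 mice it was called lower (log2 fold change -2.01, SE 0.617, adjusted p = 0.0328), and without one-week LL2 replicate 2 the value was -1.32 and not called. Lef1, a transcription factor of early lymphoid cells, had 9 and 4 counts, 16 and 18, and then 6 and 11, and its change from naive to three-week LL2 mice was 0.33 on the log2 scale (SE 0.688, adjusted p = 0.787). Of its words, 13.7% are shared, mostly with a gene on the opposite strand, and the sources used here do not say whether counting used strand.

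T-cell markers are given beside both of these genes. The 16 T-cell markers summed to 27.9 to 31.2 CPM in naive mice, 39.3 to 71.7 CPM in one-week LL2 mice and 19.3 to 22.7 CPM in three-week LL2 mice. Of the 7 tested, Cd8b1 and Lck were higher in one-week LL2 mice and Cd3d was lower in three-week LL2 mice. Without one-week LL2 replicate 2 Cd8b1 was still called (log2 fold change 1.13, adjusted p = 0.0287), and Lck was not (1.08 beside 2.39, adjusted p = 0.358). Trac, a constant chain of the T-cell receptor, was at 0 in all 6 libraries. This does not show that receptor transcripts were absent. Trbc2, another constant chain, had 2 and 1 counts in naive mice, 2 and 16 in one-week LL2 mice, and 0 and 5 in three-week LL2 mice. The part of T cells in the values of Il7r and Lef1 was not tested.

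The early genes that could not be tested were at the edge of detection. Dntt, which adds bases at the joints of immunoglobulin segments, had 9 and 1 counts in naive mice, 8 and 4 in one-week LL2 mice, and 0 and 1 in three-week LL2 mice. Rag2, the partner of Rag1, had between 1 and 6 counts in the naive and one-week libraries and 1 and 0 in the three-week ones. Vpreb2 had 1 count in all 6 libraries together. For Dntt the 12 one-week counts against 1 three-week count gave a ratio of 10.9 with a 95% counting interval from 1.62 to 468, which does not cover the spread between mice. For Rag2 and Vpreb2 no difference was detectable at this depth.

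All 11 genes used across B stages were lower in three-week LL2 mice than in naive mice, with log2 fold changes from -4.66 to -1.07. Cd79a, the first signaling chain of the receptor (ENSMUSG00000003379, chromosome 7, 24897381 to 24902197, plus strand), had 6.32 and 6.05 CPM in naive mice, 6.0 and 7.0 in one-week LL2 mice, and 1.32 and 1.46 in three-week LL2 mice. Cd79b, its partner, had 9.56 and 8.10 CPM, 13.4 and 10.1, and then 3.33 and 2.38. For both chains the three-week libraries were the lowest, and the log2 fold changes against naive mice were -2.15 (SE 0.294, adjusted p = 0.000236) for Cd79a and -1.63 (SE 0.255, adjusted p = 0.000591) for Cd79b. Blk, a kinase of the receptor, had 12 and 18 counts, 43 and 21, and then 1 and 0. Its ratio of naive to three-week counts was 31.3 with an interval from 5.20 to 1275 (adjusted p = 0.00429). Blnk, the adaptor that links the receptor to its downstream enzymes, had 70 and 37 counts, 66 and 73, and then 27 and 24. It was lower by a smaller margin, at -1.12 on the log2 scale (SE 0.360, adjusted p = 0.0417). The call was lost in DESeq2 and, at -1.155, in edgeR on the compared groups alone. It was also lost without naive replicate 1 (-0.65) and without three-week LL2 replicate 1 (-1.20) or 2 (-1.03).

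The smallest adjusted p-values belonged to regulators of transcription. Pou2af1, the coactivator that works with octamer-binding factors in B cells (ENSMUSG00000032053, chromosome 9, 51213708 to 51240080, plus strand), had 18.6 and 19.7 CPM in naive mice, 18.2 and 14.1 in one-week LL2 mice, and 2.56 and 2.46 in three-week LL2 mice. Its replicates lay close together, and its log2 fold change was -2.93 (SE 0.212, adjusted p = 1.4e-06), a level 7.61-fold lower. Spib, an ETS factor of B cells and of plasmacytoid dendritic cells, had 11.9 and 12 CPM, 10.2 and 8.79, and then 1.63 and 1.08, and was 8.82-fold lower (log2 fold change -3.14, SE 0.261, adjusted p = 3.9e-06). Pax5, which holds cells in the B lineage, had 10.5 and 10.9 CPM, 11 and 7.37, and then 2.87 and 1.84, and was 4.53-fold lower (log2 fold change -2.18, SE 0.279). Bach2, a repressor of plasma cell fate, had 10.6 and 7.85 CPM, 9.67 and 8.79, and then 2.94 and 2.61, and was 3.31-fold lower. Ebf1, which acts ahead of Pax5, had 10.2 and 8.02 CPM, 8.73 and 9.16, and then 4.18 and 4.46. Its level was 2.11-fold lower (adjusted p = 0.00382), the smallest change among the 11 genes. Cd72, a receptor that restrains B-cell signaling, was 4.84-fold lower, and 36.7% of its words are shared with Tesk1 on the opposite strand.

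As several of these genes fell together, their promoters were searched for motifs of B-cell regulators. RefSeq promoters, from 250 bases before to 50 bases after the gene start on GRCm38.p6, were found for 25 of the 33 genes. These genes had 31 promoters, and a gene was counted for a motif if any of its promoters held it. Shares over all promoters instead count each promoter. On either strand the octamer ATTTGCAT, the motif of the factors that Pou2af1 works with, lay in promoters of 2 genes, Blnk and Vpreb3, and in 1.74% of all 32851 promoters. Both are shown from 250 bases before the start up to the start, 5′ to 3′ on the strand of the gene, with the octamer in capitals. The stretch of Vpreb3 is chr10:75948050-75948299 on the plus strand and its octamer begins 45 bases before the RefSeq start. This start lies inside the GENCODE gene, which also has a transcript that begins further upstream. The stretch of Blnk is chr19:40994222-40994471 on the minus strand and its octamer begins 130 bases before the RefSeq start. The Blnk stretch also lies inside the GENCODE gene, which begins further upstream.
Vpreb3: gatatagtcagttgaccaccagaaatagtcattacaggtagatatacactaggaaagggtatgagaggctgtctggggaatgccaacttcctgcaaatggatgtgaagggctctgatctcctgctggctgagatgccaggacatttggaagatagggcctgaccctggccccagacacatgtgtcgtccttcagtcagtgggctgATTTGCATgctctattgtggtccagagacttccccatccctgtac
Blnk: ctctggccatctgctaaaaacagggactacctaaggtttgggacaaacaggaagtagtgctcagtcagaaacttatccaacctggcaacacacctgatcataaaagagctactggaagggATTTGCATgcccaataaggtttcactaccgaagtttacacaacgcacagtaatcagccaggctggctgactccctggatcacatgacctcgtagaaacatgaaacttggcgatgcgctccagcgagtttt
A match is a description of the letters and not of binding.

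Ighm behaved differently from the rest of its group. It had 87 and 524 counts in naive mice, 175 and 136 in one-week LL2 mice, and 113 and 27 in three-week LL2 mice. The groups overlapped, since three-week LL2 replicate 1 lay above naive replicate 1. Its log2 fold change against naive mice was -2.20 (SE 0.651, adjusted p = 0.0291), and without naive replicate 2 it was -0.34 and not called. Ighm is also made by plasma cells that secrete IgM, and naive replicate 2 had the highest level of Jchain.

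Of the 6 mature B genes tested, 4 were lower in three-week LL2 mice, with a median log2 fold change of -0.95 over the 6. Ms4a1, the B-cell surface protein CD20 (ENSMUSG00000024673, chromosome 19, 11249675 to 11266241, minus strand), had 49 and 56 counts in naive mice, 52 and 38 in one-week LL2 mice, and 10 and 10 in three-week LL2 mice. The three-week libraries were the lowest and equal, and the level was 5.42-fold lower than in naive mice (log2 fold change -2.44, SE 0.387, adjusted p = 0.00064). Fcrla, an Fc receptor-like protein inside B cells, had 51 and 27 counts, 72 and 55, and then 10 and 6 (log2 fold change -2.32, SE 0.464, adjusted p = 0.00316). Bank1, a scaffold of B-cell signaling, changed least among the called genes, from 12.4 and 12.8 CPM in naive mice to 8.29 and 6.84 in three-week LL2 mice (log2 fold change -0.74, SE 0.183, adjusted p = 0.012).

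Cd22, a receptor that dampens B-cell signaling (ENSMUSG00000030577), had 5.38 and 6.05 CPM in naive mice, 5.47 and 3.43 in one-week LL2 mice, and 2.56 and 2.54 in three-week LL2 mice. Its log2 fold change was -1.16 (SE 0.311, adjusted p = 0.0177), and leaving out any of the 4 naive and three-week libraries ended the call while the log2 fold change stayed between -1.28 and -1.07. Cd22 was the only one of the 25 genes with a promoter to hold the motif of EBF1, searched on both strands as TCCC and GGGA with any 2 bases between them, where 0.904% of all promoters held it. The motif is in capitals in the bases before the RefSeq start, chr7:30879029-30879278 on the minus strand, and begins 49 bases before that start. This stretch lies inside the GENCODE gene of Cd22, which begins further upstream.
Cd22: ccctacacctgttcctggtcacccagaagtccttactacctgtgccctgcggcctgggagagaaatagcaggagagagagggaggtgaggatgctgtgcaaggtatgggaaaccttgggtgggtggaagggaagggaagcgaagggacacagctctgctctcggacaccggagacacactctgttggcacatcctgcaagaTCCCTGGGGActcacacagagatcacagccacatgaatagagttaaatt
No binding was measured in these data.

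Cr2 and Fcer2a took another course than the other mature B genes. Cr2, the complement receptor CD21 (ENSMUSG00000026616, chromosome 1, 195136811 to 195176716, minus strand), had 39 and 55 counts in naive mice, 172 and 221 in one-week LL2 mice, and 61 and 67 in three-week LL2 mice. Both one-week libraries lay above all others, and the three-week libraries lay above the naive ones. The log2 fold change was 1.88 at 1 week (SE 0.255, adjusted p = 0.00131) and 0.38 at 3 weeks (SE 0.274, adjusted p = 0.361), and from 1 to 3 weeks it was -1.50 (SE 0.246, adjusted p = 0.000772). Fcer2a, the low-affinity IgE receptor CD23, had 53 and 65 counts, 107 and 100, and then 62 and 58. Its one-week libraries were also the highest, but the log2 fold change at 1 week was 0.62 (SE 0.241, adjusted p = 0.137) and that at 3 weeks was -0.04 (SE 0.250, adjusted p = 0.941). No 50-base word of Cr2 is shared with another gene.

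The 4 tested genes of MHC class II presentation were all lower in three-week LL2 mice. H2-Eb1 had 25.1 and 33 CPM in naive mice, 23.6 and 24.4 in one-week LL2 mice, and 7.36 and 5.99 in three-week LL2 mice. Its log2 fold change against naive mice was -2.12 (SE 0.185, adjusted p = 5.72e-06), a level 4.35-fold lower. H2-Aa had 26.8 and 42.4 CPM, 27.4 and 31, and then 11.1 and 8.30, and was 3.57-fold lower. H2-Ab1 had 16.1 and 23.9 CPM, 19.9 and 19.4, and then 7.28 and 4.38, and was 3.42-fold lower. Cd74, the invariant chain that guides these molecules through the cell, had 6.88 and 9.81 CPM, 9.07 and 12.7, and then 3.56 and 2.77, and was 2.63-fold lower. For each of these genes both three-week libraries lay under the other 4. Ciita, the coactivator that switches on MHC class II genes, was too low to test. It had 3 and 13 counts, 6 and 5, and then 1 and 1, a ratio of naive to three-week counts of 8.34 with an interval from 1.96 to 74.7.

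The Y box CTGATTGG, an element of MHC class II promoters, was found in promoters of 3 of the 25 genes, H2-Aa, H2-Eb1 and Fcer2a, and in 4.1% of all promoters. For the 2 MHC class II chains the bases before the start are shown with the Y box in capitals. In the stretch of H2-Aa, chr17:34287824-34288073 on the minus strand, it begins 51 bases before the start, and in that of H2-Eb1, chr17:34305617-34305866 on the plus strand, 62 bases before it.
H2-Aa: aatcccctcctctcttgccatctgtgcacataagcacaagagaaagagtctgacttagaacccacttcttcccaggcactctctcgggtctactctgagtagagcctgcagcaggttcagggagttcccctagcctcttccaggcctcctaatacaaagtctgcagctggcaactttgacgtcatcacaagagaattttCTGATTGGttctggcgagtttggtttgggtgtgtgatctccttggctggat
H2-Eb1: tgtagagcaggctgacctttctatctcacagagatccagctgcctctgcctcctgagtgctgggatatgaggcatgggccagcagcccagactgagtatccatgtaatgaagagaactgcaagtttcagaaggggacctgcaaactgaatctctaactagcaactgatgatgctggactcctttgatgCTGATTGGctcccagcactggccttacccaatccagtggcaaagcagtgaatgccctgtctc
Fcer2a, whose promoter also held the Y box, was not called at 3 weeks. The E-box CAGCTG, in 16.3% of all promoters, was held by 7 of the genes, H2-Aa, H2-Eb1 and Fcer2a among them. In the 2 stretches shown it did not overlap the Y box.

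MHC class II is not particular to B cells. Over all tested genes, 9.42% were called lower and 12% higher in three-week LL2 mice than in naive mice. Of 8 tested dendritic cell markers, 2 were lower in three-week LL2 mice, Itgax, an integrin, and Bst2. The 11 markers summed to 108 to 116 CPM in naive mice, 109 to 116 CPM in one-week LL2 mice and 84.9 to 96.8 CPM in three-week LL2 mice. Cd209a was near the floor throughout, with 0 and 3 counts in naive mice, 6 and 7 in one-week LL2 mice, and 0 and 0 in three-week LL2 mice. Of 14 monocyte and macrophage markers, 2 were lower and 3 higher, with sums of 930 to 1104, 814 to 827 and 943 to 1420 CPM. The part of these cells in the values of the MHC class II genes was not tested.

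To compare early with mature transcripts, the log2 ratio of their summed CPM was taken in each library. Early genes summed to 23.3 and 11.5 CPM in naive mice, 21.5 and 15.9 in one-week LL2 mice, and 2.17 and 3.30 in three-week LL2 mice, 6.35-fold lower than in naive mice by the means. Mature genes summed to 33 and 35.5 CPM, 44.7 and 46.4, and then 21.9 and 20.2, which was 1.62-fold lower. Genes used across stages were 4.25-fold lower and those of MHC class II 3.64-fold lower. The log2 ratio of early to mature was -0.50 and -1.63 in naive mice, -1.06 and -1.54 in one-week LL2 mice, and -3.34 and -2.61 in three-week LL2 mice. Both three-week ratios lay under the other 4, and the difference in means from naive mice was -1.91. Summed per length, the ratios were 1.19 and 0.09, 0.60 and 0.08, and then -1.71 and -1.37.

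This order depended on the summary. With the mean of log2(CPM + 0.5) in place of the sum, the ratios were -1.48 and -2.21 in naive mice. They were -1.87 and -2.17 in one-week LL2 mice and -2.27 and -2.00 in three-week LL2 mice, and the groups overlapped. The added 0.5 CPM shrinks changes of genes at a low level, and it exceeds the naive means of Rag2, Dntt and Vpreb2. Gene by gene, the median log2 fold change from naive mice was -3.52 over the 7 tested early genes and -0.95 over the 6 mature ones. Early genes could pass the filter on their naive or one-week level alone, and Rag2, Dntt and Vpreb2 did not pass it. These medians thus describe the tested genes only and do not settle which summary holds. With MHC class II genes counted as mature the ratios of the groups overlapped as well, since three-week LL2 replicate 2 was at -3.66 and naive replicate 2 at -3.67. Without Cr2, Fcer2a and Bank1, left out after they were seen to change least, the difference from naive mice was -0.88 and three-week LL2 replicate 2, at -0.19, lay just under naive replicate 2, at -0.17. Replicates also differed in their early genes. In naive mice 6 of the 7 tested early genes were higher in replicate 1, beside 13 of all 28 tested B-lineage genes. In one-week LL2 mice it was 5 of 7 beside 17 of 28, and in three-week LL2 mice 1 of 7 beside 19 of 28. The three-week count rests partly on genes at the floor, since Rag1 was at 0 in both libraries and Igll1 and Myl4 had at most 2 counts.

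**Figure D3:**
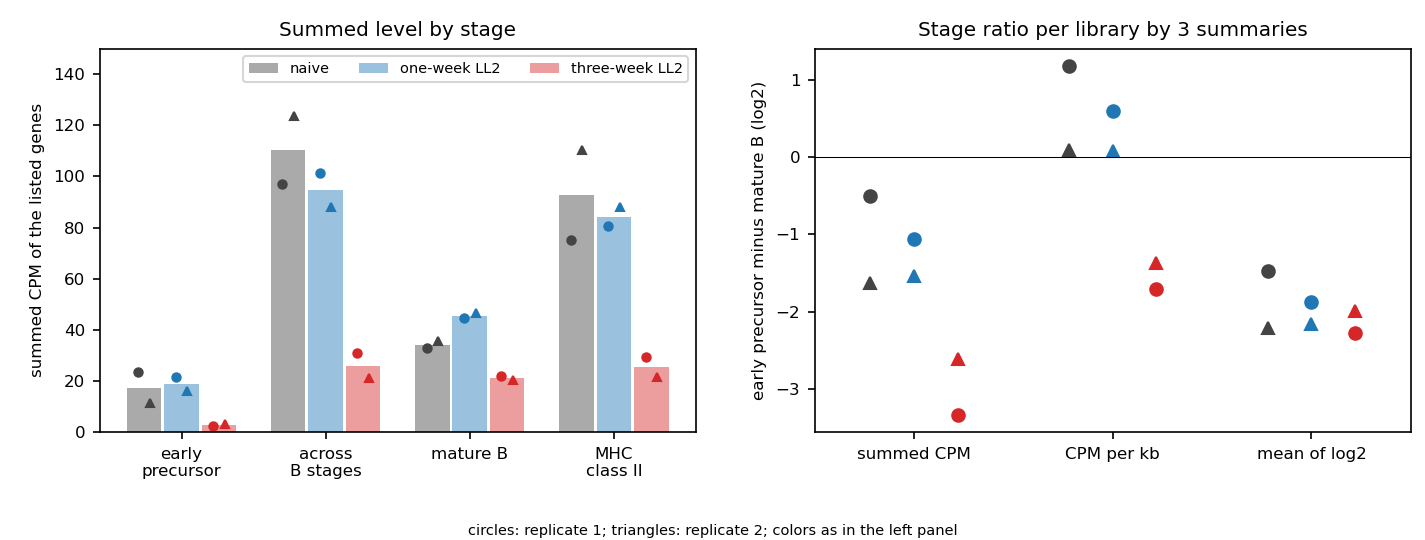
Left, summed CPM of the genes of each stage, with bars for the mean of 2 libraries and points for the libraries. Right, log2 ratio of early precursor to mature B genes in each library by summed CPM, by CPM per kb and by the mean of log2(CPM + 0.5). By the first and second summary both three-week libraries lie under the rest, from -3.34 to -2.61 by summed CPM, and by the third the groups overlap.

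Other B-lineage genes outside the 33 were counted from a wider list. Of 32 tested, 17 were lower and 2 higher in three-week LL2 mice than in naive mice, against 9.42% and 12% of all tested genes. Their median log2 fold change was -1.09. In one-week LL2 mice 2 were lower, against 3.76% of all tested genes. The summed level of this list did not follow, at 786 and 825 CPM in naive mice, 837 and 779 in one-week LL2 mice, and 859 and 802 in three-week LL2 mice. Cd24a, which other blood cells also express and which was chosen after its values were seen, held 369 to 460 CPM of these sums in each library. Ralgps2, an exchange factor for small GTPases, had 129 and 121 counts in naive mice, 121 and 107 in one-week LL2 mice, and 29 and 23 in three-week LL2 mice (log2 fold change -2.32, adjusted p = 2.89e-05), and Cd93, a surface protein of immature B cells and of other immature blood cells, fell with a log2 fold change of -1.37. Bst1, an ectoenzyme of stroma and of myeloid and lymphoid cells, and Tnfrsf13b, a receptor for the B-cell survival factors BAFF and APRIL, rose with log2 fold changes of 1.31 and 1.59. Signaling genes downstream of the receptor, many of which myeloid cells also use, did not follow. Of 22, 4 were lower and 3 higher, against 9.42% and 12% of all tested genes, with a median of -0.14. Among those, Lat2, an adaptor of B cells and myeloid cells, rose with a log2 fold change of 2.22, and Ptpn6, a phosphatase that restrains the receptor, fell with one of -0.41.

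Plasma cell genes were set beside the immunoglobulin genes. Of 6 tested, 3 were lower and 1 higher in three-week LL2 mice than in naive mice, against 9.42% and 12% of all tested genes. Mzb1, a chaperone of antibody assembly, had 108 and 172 counts in naive mice, 133 and 90 in one-week LL2 mice, and 15 and 13 in three-week LL2 mice (log2 fold change -3.37, adjusted p = 1.58e-05). Jchain had 306 and 1168, 380 and 456, and then 249 and 114 (log2 fold change -2.09, adjusted p = 0.00752), and without naive replicate 2 it was at -0.78 and not called (adjusted p = 0.166), whereas Mzb1 was still called at -2.96. Xbp1, a factor of secretory cells, rose (log2 fold change 0.65). The 9 genes summed to 107 to 204 CPM in naive mice, 104 to 118 in one-week LL2 mice and 123 to 156 in three-week LL2 mice, which overlapped. The part of plasma cells in the values of Ighm was not tested.

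Some markers of several further cell types were also called lower in three-week LL2 mice than in naive mice. Over all tested genes 9.42% were called lower and 12% higher. Erythroid markers had 2 of 12 lower, megakaryocyte markers 4 of 7, and markers of basophils, eosinophils and mast cells 5 of 10. Those of stem and progenitor cells had 3 of 11 lower, and those of stroma and endothelium 3 of 8 lower and 1 higher. Erythroid sums overlapped, at 1225 to 1377 CPM in naive mice and 582.5 to 1364 CPM in three-week LL2 mice. Stroma and endothelium sums were higher, at 141.6 to 148.8 and then 157.3 to 157.8 CPM. Megakaryocyte, basophil and stem cell list sums lay lower in both three-week libraries. Of 4 NK-cell markers tested, 0 were called by edgeR against naive mice and 1 had an unadjusted p under 0.05. Neutrophil precursor genes split, with 8 lower and 5 higher of 13, mature neutrophil genes had 3 of 14 higher, and genes of proliferation had 8 of 16 lower. With all libraries, the median log2 fold changes over the tested genes were -1.88 for plasma cell and -0.86 for NK-cell genes. Without naive replicate 2, the 6 tested plasma cell genes stood at -2.96, -2.88, -0.78, -0.57, 0.23 and 0.82. Medians over all libraries were -0.76 for basophil, eosinophil and mast cell, -0.69 for megakaryocyte, -0.62 for dendritic cell and -0.56 for stroma and endothelium genes. They were -0.48 for erythroid, -0.45 for proliferation, -0.26 for stem and progenitor and -0.21 for T-cell genes, 0.08 for monocyte and macrophage genes, and -2.13 for the B-lineage genes. The part of each of these cell types was not tested.

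**Figure D4:**
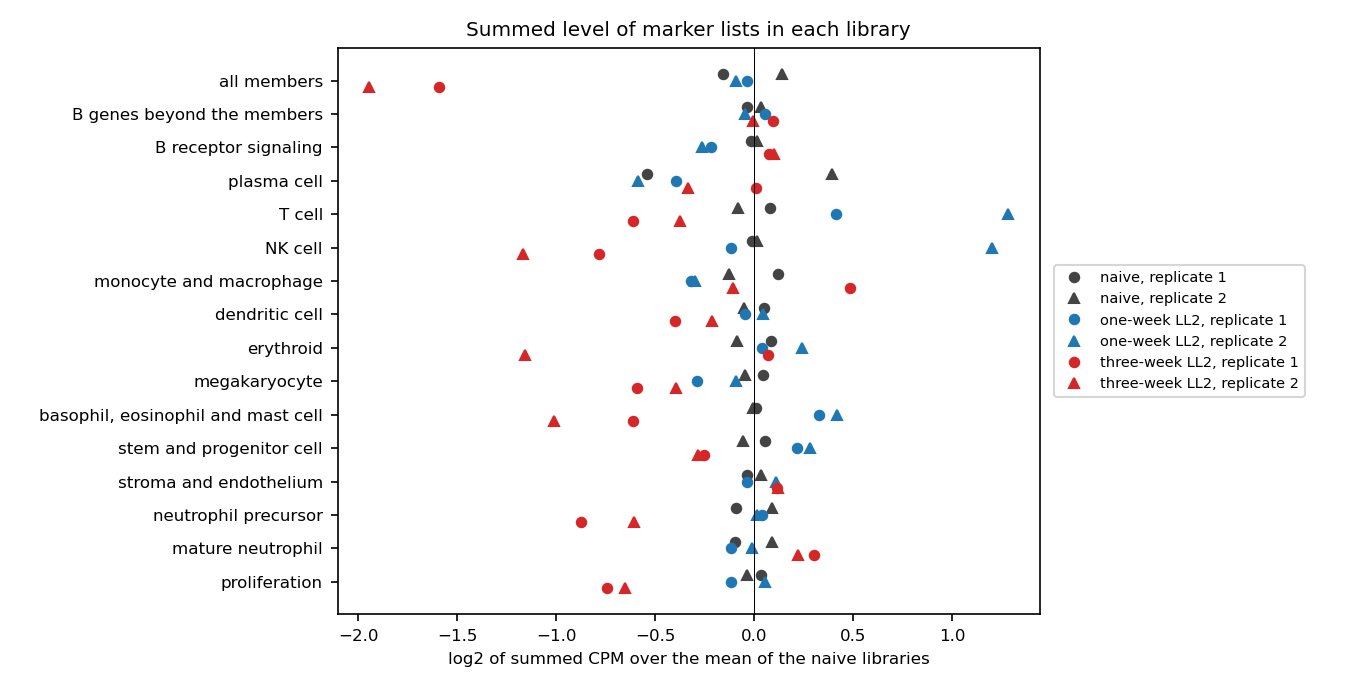
Summed CPM of each marker list in each library, as log2 over the mean of the naive libraries. Points are libraries, colors mark the groups and shapes the replicate number. The 33 B-lineage genes have their three-week libraries at -1.59 and -1.94, farther under the naive mean than those of any other list shown, and the T-cell and NK-cell lists have 1 one-week library far above the rest.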

How the data were processed

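The RNA came from Ly6G-selected BM cells, with 2 libraries for each of the 3 groups of mice. The authors deposited expected counts per gene, estimated by RSEM against mm10, as whole numbers without normalization. The submitters' notes name RSEM 1.2.31 and the study's methods another version, and the read length differs between both. A figure legend of the study names more samples per group than the 2 libraries here. The purity after bead selection is the study's own and was not measured here.

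Symbols, positions and exon lengths came from GENCODE vM21 on GRCm38, the build called mm10, and 37570 of 38887 identifiers matched. Genes with low counts were removed by filterByExpr, TMM factors were 0.9134 to 1.072, and edgeR 4.0.16 (R 4.3.3) compared the groups by its quasi-likelihood test. A single fit held the 6 libraries, and its only term was the group. DESeq2 1.42.0 was an alternative. The fit was tested on simulated data. Replicate libraries differed by more than counting noise. The genes, lists and tests were chosen with earlier results of these data known. All 33 genes were accounted for, and of each other list up to 4 genes were named, in order of adjusted p, or markers at 0. Trbc2 was added beside Trac after its values were seen. Same-numbered libraries did not deviate together, so no pairing was used. Ratios of groups with few counts carry exact 95% counting intervals. Promoter sequences came from RefSeq on GRCm38.p6.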

Additional observations from a re-analysis of the deposited data

Results flagged for a closer look

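The change from naive mice was not the same at 1 and at 3 weeks for 24 of the 28 tested B-lineage genes, by the direct edgeR test of three-week against one-week LL2 mice. All 24 were lower at 3 weeks than at 1 week. The naive libraries drop out of this difference, so it equals the three-week against one-week comparison of the report and is no second result.

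Among early genes the log2 fold changes were -6.70 for Rag1, -5.15 for Igll1, -4.33 for Myl4, -3.81 for Vpreb3, -2.08 for Vpreb1 and -2.01 for Il7r. Rag1 was at 0 in both three-week libraries, so that its fitted value is no bound. Among genes used across B stages they were -5.54 for Blk, -2.81 for Spib, -2.68 for Pou2af1, -2.46 for Cd72, -2.22 for Cd79a and -2.04 for Cd79b. In the same group they were -1.96 for Pax5, -1.73 for Bach2, -1.32 for Blnk and -1.05 for Ebf1. Among mature B genes they were -2.83 for Fcrla, -2.02 for Ms4a1, -1.50 for Cr2 and -0.70 for Bank1. Only Cr2 had also been called higher at 1 week than in naive mice. Among MHC class II genes they were -1.84 for H2-Eb1, -1.78 for Cd74, -1.76 for H2-Ab1 and -1.59 for H2-Aa. Samples were not tested for outliers, since each group has 2 libraries.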

How the results depend on the processing

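Of the 24 B-lineage genes called in three-week LL2 mice against naive mice, 17 kept their call in every alternative fit in which they could be tested, and 17 of 24 did so against one-week LL2 mice. Against naive mice, Cd22, Bank1, Vpreb1, Myl4, Blnk, Igll1 and Ighm lost it under at least 1 setting, and against one-week LL2 mice Il7r, Bank1, Vpreb1, Myl4, Blnk, Rag1 and Igll1. DESeq2 called 21 genes in each of these comparisons. Leaving out 1 library at a time gave 19 to 24 called genes in both comparisons and 1 at 1 week. With a single library left, that group was assumed to vary like the others. The cause of these losses was not tested.

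With the replicate number as a block, which the data did not bear out as a pairing (correlations of 0.010 to 0.038), 23 of the genes were called at 3 weeks against naive mice, 24 against one-week LL2 mice and 1 at 1 week, and only Ighm lost its call, at -2.03. Over all tested genes the block gave 2559, 2709 and 959 calls in these comparisons, beside 2626, 2759 and 979 without it.

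Counts of calls at 1 week were 1537 of all genes and 2 of the B-lineage genes without the filter, 274 of all genes at an adjusted p under 0.01, and 92 and 0 with a change over 5-fold. Against naive mice at 3 weeks, 1339 genes were called at 0.01 and 208 over 5-fold, 10 of them B-lineage. Against one-week LL2 mice these were 1481, 196 and 9. Without 1 library at a time, calls over all genes ran from 147 to 1145 at 1 week, from 1362 to 2392 at 3 weeks and from 1502 to 2725 between both. The lowest counts came without naive replicate 1 at 1 week and at 3 weeks and without one-week LL2 replicate 2 between both.

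With library totals alone, the median over all genes moved to -0.11 at 3 weeks and to -0.22 between 1 and 3 weeks, the summed level between both was -1.91 on the log2 scale beside -1.70, and no direction of a called gene changed.

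The difference of the stage ratio at 3 weeks from naive mice was -0.29 by the mean of log2 values, -2.57 without Il7r, Lef1 and Myl4, -1.17 with MHC class II genes counted as mature, and -0.88 without Cr2, Fcer2a and Bank1, a choice made after seeing the data. From 1 to 3 weeks it was -0.12 by the mean of log2 values. At 1 week it was -0.23 and turned to 0.13 with MHC class II genes, to 0.31 without Cr2, Fcer2a and Bank1, and ran from -0.80 to 0.33 without 1 library at a time, turning without naive replicate 1 and, at 0.01, without one-week LL2 replicate 2. The summed level at 1 week ran from -0.21 to 0.091, turning without naive replicate 2.

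At 1 week only 6 genes, Il7r, Fcer2a, Cr2, Cd79b, Vpreb1 and Ighm, were followed singly through the alternative fits. Of these, Il7r (-0.048 to 1.64), Vpreb1 (-1.44 to 0.42) and Ighm (-1.98 to 0.66), all uncalled, turned without 1 library. The other uncalled genes were not followed at 1 week and could turn as well. At 3 weeks against naive mice all 28 tested genes were followed, and the uncalled Fcer2a (-0.23 to 0.15) and Lef1 (-0.16 to 0.95) turned. Depth left Rag2, Dntt, Vpreb2 and Ciita untested, and 3 counts were 0.212 to 0.25 CPM.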

Other observations

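Immunoglobulin transcripts were mostly of constant genes. Igha, the IgA heavy chain, chosen after its values were seen, had 741 and 1901 counts in naive mice, 1500 and 1675 in one-week LL2 mice, and 758 and 267 in three-week LL2 mice. The naive and three-week libraries overlapped, and the log2 fold change was -1.43 (SE 0.419, edgeR adjusted p = 0.0273), which without naive replicate 2 was -0.56 and not called (adjusted p = 0.414), and against one-week LL2 mice it was -1.50 (adjusted p = 0.0206). Igkc, the kappa light chain, had 30 and 115 counts, 135 and 112, and then 48 and 5, and Iglc2, a lambda light chain, had 76 and 127, 90 and 93, and then 31 and 9. The 214 variable segments with a row summed to between 5 and 23 counts in any library. Multi-mapping of reads from joined segments was not examined here.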
